A study of Mus musculus with 18 samples.

Results

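Processing bodies (P-bodies) are cytoplasmic granules in which messenger RNA is held untranslated or broken down. The 42 genes described here encode their scaffold and repressor proteins, the enzymes that shorten the poly(A) tail (deadenylation), the enzymes that remove the 5' cap (decapping) and the adaptors that bring these enzymes to a transcript. They were chosen by name, as probes of the array whose gene name, or an older alias, is on the list. All 42 genes were on the array, with 92 probes, and all 42 passed the filter on dim probes, out of 19299 genes that passed it. To pass, a gene needed a probe with signal well above background in every array of some group, and 41 of the 42 had such signal in all 18 arrays. The exception was Btg4, with 10 of 18 arrays.

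The arrays hold RNA from whole mouse ovaries, wild type (WT) or Elavl2 knockout (KO), at the embryonic days E15.5 and E17.5 and on the day of birth (P0). Elavl2 encodes a neuronal-type RNA-binding protein of the ELAV family that oocytes also make. Each of the 6 groups had 3 samples, all from females, and the tissue was whole gonad that the labels describe as a mix of cells. The mouse strain, the deleted part of Elavl2 and whether each sample came from a separate animal are not given in the sources used here, so p-values here reflect only how much these samples vary, which may be technical. Between 62.5% and 75.2% of the probes of an array were well above background. In RNA from a whole organ, fewer cells of a type and less RNA per cell cannot be told apart.

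A messenger RNA usually starts its decay when the CCR4-NOT and PAN2-PAN3 deadenylases trim its tail. The LSM1-7 ring and PAT1-family proteins then bind the shortened end, the DCP2 enzyme removes the cap with its partner DCP1, and the exonuclease XRN1 degrades the body from the 5' end. The helicase DDX6 ties these steps to repression of translation and is needed for P-bodies to form. Oocytes depend on storage of untranslated messengers, which they later use and clear without transcription, and they have their own versions of some of these proteins, among them PATL2, LSM14B and BTG4. The study of this knockout asked what ELAVL2 does in oocytes as they form their first follicles, in which P-body assembly was one subject.

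Promoter sequences are shown for Btg4 and Patl2, the 2 members that fell in the knockout by the largest amounts, and for Patl1, the widely made relative of Patl2. They are the 250 bases before the start site, from RefSeq on build GRCm38.p6, 5' to 3' on the strand of the gene, with E-boxes in capitals. An E-box (CANNTG) is the motif of helix-loop-helix factors such as FIGLA, a regulator of oocyte genes. Btg4 is at chr9:51115751-51116000 on the plus strand, Patl2 at chr2:122186190-122186439 on the minus strand, and Patl1 at chr19:11912149-11912398 on the plus strand.
Btg4: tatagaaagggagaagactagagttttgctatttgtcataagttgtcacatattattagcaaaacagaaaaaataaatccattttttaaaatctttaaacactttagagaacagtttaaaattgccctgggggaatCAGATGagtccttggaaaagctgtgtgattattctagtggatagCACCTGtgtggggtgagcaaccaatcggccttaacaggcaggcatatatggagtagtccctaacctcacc
Patl2: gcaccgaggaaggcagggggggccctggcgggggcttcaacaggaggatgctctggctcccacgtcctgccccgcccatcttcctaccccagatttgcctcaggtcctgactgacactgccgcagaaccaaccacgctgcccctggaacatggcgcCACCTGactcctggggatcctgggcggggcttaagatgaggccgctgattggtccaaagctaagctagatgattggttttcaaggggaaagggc
Patl1: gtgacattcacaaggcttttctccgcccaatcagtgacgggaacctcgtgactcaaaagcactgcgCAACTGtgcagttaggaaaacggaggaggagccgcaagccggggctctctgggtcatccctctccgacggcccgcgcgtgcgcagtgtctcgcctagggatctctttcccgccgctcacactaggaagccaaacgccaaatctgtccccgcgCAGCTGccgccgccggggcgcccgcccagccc
Of the 42 members, 34 had a promoter window in that table, with 45 windows in all, each running from 250 bases before to 50 bases after a start. The Btg4 window was poor in G and C (39% of its bases, with 1 CG dinucleotide), and 8.38% of the 32851 windows of all genes had less. The Patl1 window had 67.3% G and C and 36 CG dinucleotides, and the Patl2 window 60.7% and 10. Btg4 and Patl1 each held 2 E-boxes and Patl2 held 1. An E-box was in 25 of the 45 member windows (55.6%) and in 72.3% of all windows. The motif TAATTG of the oocyte factor NOBOX, read on both strands, was in none of the member windows and in 8% of all windows. The motif TGATTG of the oocyte factor LHX8 was in 17.8% of member windows and 14% of all windows. Patl2 held it at 2 positions and Patl1 at 1, each overlapping a CCAAT box read on the strand opposite the motif. It also overlapped a CCAAT box in Cnot3, G3bp1, Lsm6 and Pan2, and did not in Xrn1 and Zfp36l1. The median share of G and C was 64% in member windows and 52.7% in all windows, and its part in these motif shares was not tested. These matches describe the letters of the windows only.

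At P0, 11 of the 42 members (26.2%) differed between knockout and wild type, against 34.5% of all genes tested. Here and below a gene is called when limma, fitted to all genes, gave an adjusted p (Benjamini-Hochberg) under 0.05, a change is knockout minus wild type on the log2 scale, and ± is the standard error of the fit. Of the 11, 6 were lower (Btg4, Patl2, Ddx6, Lsm1, Patl1 and Lsm3) and 5 were higher (Dcp2, Tnrc6a, Tob1, Zfp36l1 and Cnot10), where the shares among all genes were 16.1% lower and 18.3% higher. The median change of the 42 was -0.05 and that of all genes was -0.00088, and 23 of 42 changes were below 0. In 16 of the 42 the samples of the 2 genotypes did not overlap at P0, 9 with the knockout above and 7 with it below, while 48.3% of all genes did not overlap. The called members came from 6 of the 7 roles, the other deadenylases having none.

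**Figure D1:**
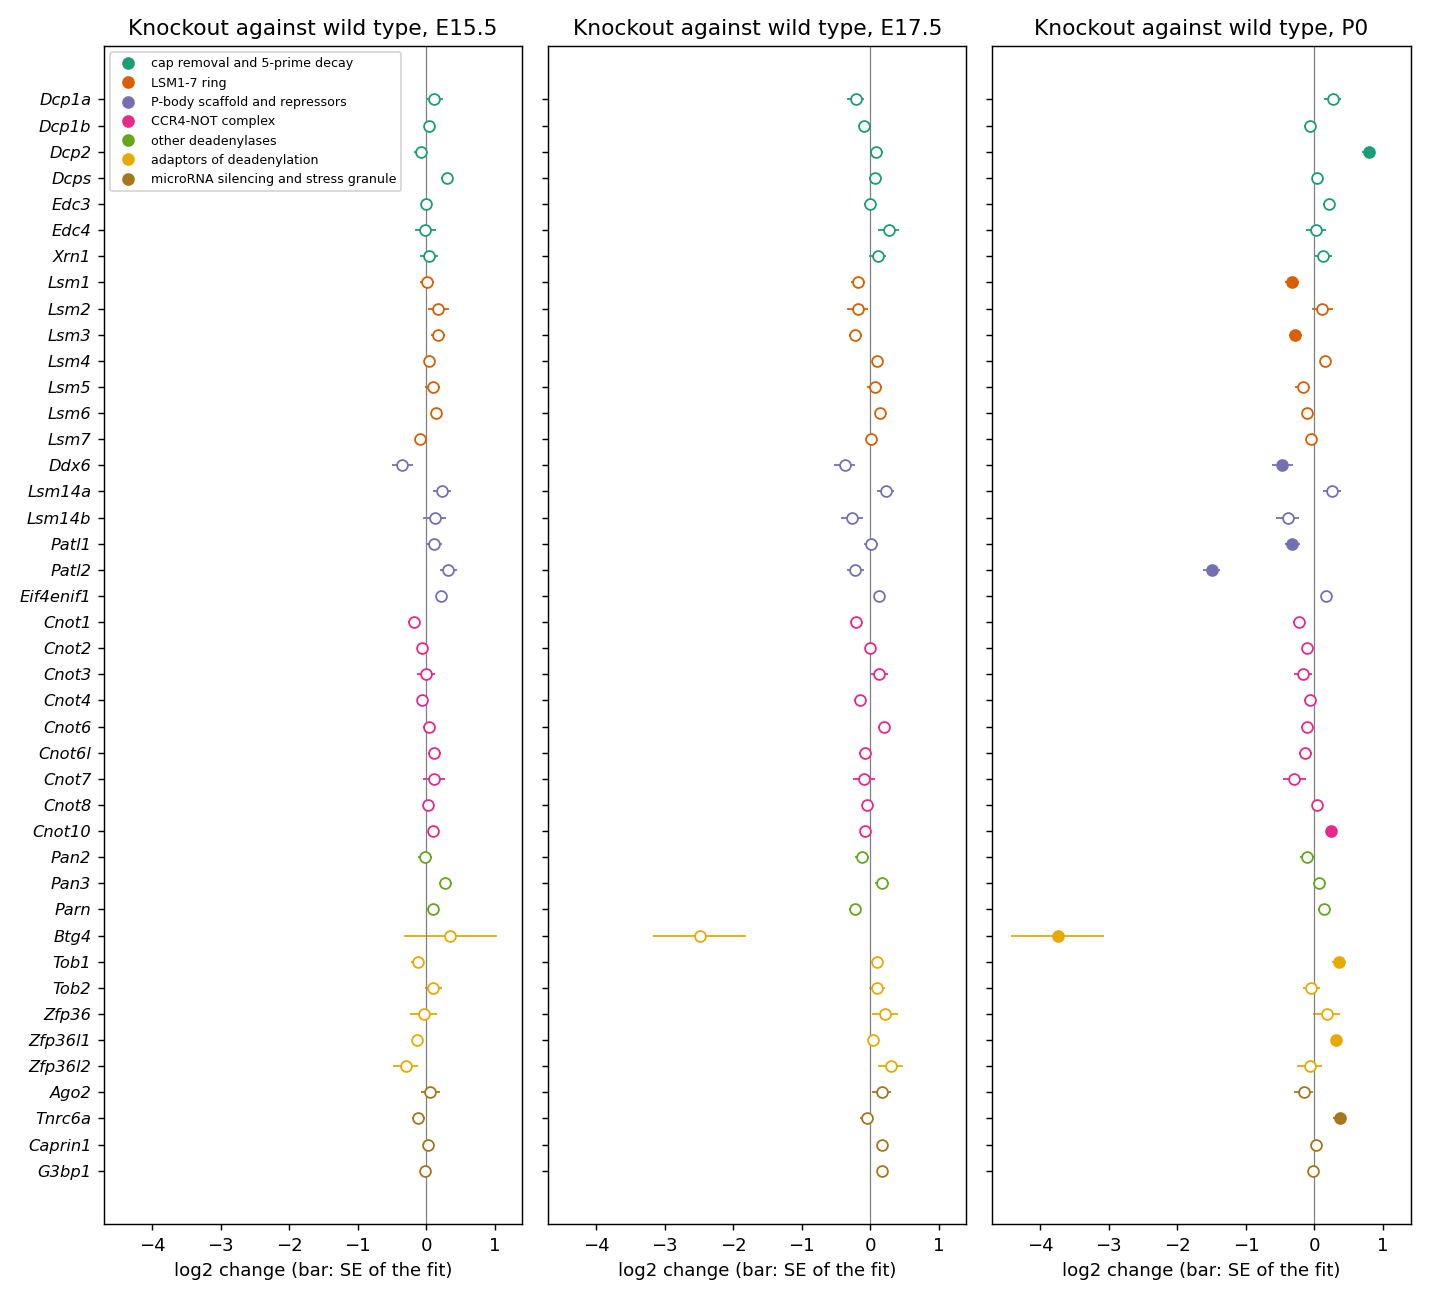
Log2 change, knockout minus wild type, of the 42 members (rows, coloured by role) at the 3 stages, with bars for the standard error of the fit. Filled points are called at an adjusted p under 0.05; they appear only at P0, where Btg4 at -3.75 and Patl2 at -1.50 lie farthest from 0.

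The lower calls depend on how arrays are put on one scale. Values here are log2 signal minus the 75th percentile of the array. With the array's median in its place, the median change of all genes at P0 was 0.14, 5235 genes were called higher and 1903 lower in place of 3533 and 3116, and the members split into 10 higher and 2 lower in place of 5 and 6. Ddx6, Patl1, Lsm1 and Lsm3 were not called on that scale, while Btg4 and Patl2 remained the 2 lower members. No called member changed sign under any other scaling. Without wild type replicate 2 of P0, 4 members were called, without wild type replicate 1 or knockout replicate 2, 7 were, and with only the P0 arrays in the fit 3 were (Dcp2, Patl2 and Btg4). At P0 the wild type arrays were on a slide with no knockout array, so slide and genotype cannot be told apart there.

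Some markers of cell types differed with genotype at P0. Of the 5 oocyte markers (Figla, Nobox, Zp3, Gdf9, Sohlh1), 4 were measured, and their summed signal was 68.6 to 72.3 times the 75th percentile in wild type and 28.3 to 41.3 in knockout at P0. Zp3, a protein of the oocyte coat, and Gdf9, an oocyte growth factor, fell (-5.32 ± 0.42 and -3.30 ± 0.27, adjusted p = 3.3e-06 and 4.5e-06), while Figla and Nobox were not called (-0.05 and -0.46). The 5 germ cell markers summed to 94.9 to 102 in wild type and 92.7 to 115 in knockout, and 1 of them, Dazl, was higher (0.86 ± 0.13, adjusted p = 0.00035). Pregranulosa markers summed to 82.8 to 96 and 101 to 117, with 1 of 5 called, higher, and endothelial markers to 4.82 to 5.83 and 6.1 to 7.83, with 2 of 4 called, higher. At E17.5 the oocyte sum was 24.9 to 30.6 and 14.4 to 30.6 (1 of 4 called, Gdf9, lower), the germ cell sum 81.7 to 96.7 and 56.7 to 86.1 (none of 5 called), and red cell markers summed to 308 to 415 in wild type and 424 to 746 in knockout with none of 5 called. Macrophage markers summed to 1.54 to 1.75 in wild type and 1.78 to 2.16 in knockout at E17.5, with 1 of 4 called (Cd68, higher). The macrophage marker Adgre1 and the stroma marker Pdgfra were called higher at P0, and the endothelial marker Tek lower at E15.5. The 4 testis markers measured (Insl3 was not) summed to 0.951 to 1.35 over all groups, and all 4 had signal well above background; at P0 Sox9 was higher (0.47) and Dhh lower (-0.34). The part of these shifts in the changes below was not tested. For Elavl2 itself the change was -0.11 ± 0.12 at E15.5 (adjusted p = 0.75), -0.87 ± 0.12 at E17.5 (adjusted p = 0.0045) and -1.36 ± 0.12 at P0 (adjusted p = 9.1e-06). Since the deleted part is not given, its probe does not check the labels.

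Among the scaffold and repressor genes, 3 of 6 fell at P0 and none was called higher, with a median of -0.36, where 16.1% of all genes were called lower. On the array median scale Patl2 alone of the 6 was called lower. Patl2 encodes an RNA-binding relative of the decapping activator PATL1 and is needed for oocyte maturation. Its level at P0 was -2.70, -2.83 and -2.79 in wild type and -4.07, -4.38 and -4.36 in knockout. Every knockout sample lay well below every wild type sample. The change was -1.50 ± 0.12, a 2.83-fold fall (adjusted p = 4.3e-06), and it was called under all 30 alternatives, with changes from -1.60 to -0.57. The smallest, -0.57, came with normexp background correction and quantile normalization. Among the 30 are settings that leave out an array of another stage. For this and every other member, these keep the genotype change at P0 as it is and alter only its standard error and adjusted p. Before birth Patl2 was dim in both genotypes, from -4.30 to -4.13 in wild type and -4.05 to -3.63 in knockout at E15.5, and from -4.54 to -4.11 and -4.85 to -4.20 at E17.5.

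Ddx6, the P-body helicase, was read by 1 probe, at chr9:44444787-44444846 (mm9, the build of the files). At P0 its level was 0.01, -0.42 and -0.65 in wild type and -0.84, -0.87 and -0.75 in knockout. The groups did not overlap, but the wild type samples were spread widely (-0.35 ± 0.34, SD, n = 3) beside the knockout samples (-0.82 ± 0.06), and the lowest of them lay near the highest knockout sample. The change was -0.47 ± 0.15 (adjusted p = 0.032). At E15.5 the level was -1.09, -0.89 and -1.02 in wild type and -1.21, -1.33 and -1.52 in knockout, again without overlap, and the change was -0.35 ± 0.15 (adjusted p = 0.30). At E17.5 it was -0.83, -1.01 and -1.27 in wild type and -1.08, -1.15 and -1.99 in knockout, with overlap and a change of -0.37 ± 0.15 (adjusted p = 0.18). The Ddx6 change was below 0 at each stage but passed the test at P0 alone, and no difference between P0 and E17.5 was called (-0.10 ± 0.22, adjusted p = 0.81). The P0 call was lost under 11 of 30 alternatives (adjusted p 0.0083 to 0.14), including the array median scale and leaving out wild type replicate 1 or 2 or any 1 knockout sample; without wild type replicate 1 the change was -0.28.

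Patl1, the widely made PAT1-family protein, was 0.61, 0.61 and 0.44 in wild type and 0.29, -0.04 and 0.45 in knockout at P0. Knockout replicate 3 lay within the wild type range. The change was -0.32 ± 0.11 (adjusted p = 0.032), and the call was lost under 8 of 30 alternatives, among them leaving out wild type replicate 1, wild type replicate 2 or knockout replicate 2. Lsm14b, which encodes an oocyte-enriched partner of DDX6 in repression of translation, was 3.22, 3.01 and 3.27 in wild type and 2.92, 2.56 and 2.84 in knockout. Its genotypes did not overlap and its change of -0.39 ± 0.16 was not called (adjusted p = 0.081). Its broadly made relative Lsm14a was at 0.26 ± 0.13 (adjusted p = 0.13), and Eif4enif1, the 4E-T protein that binds the cap-binding factor in P-bodies, at 0.17 ± 0.06 (adjusted p = 0.059).

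**Figure D2:**
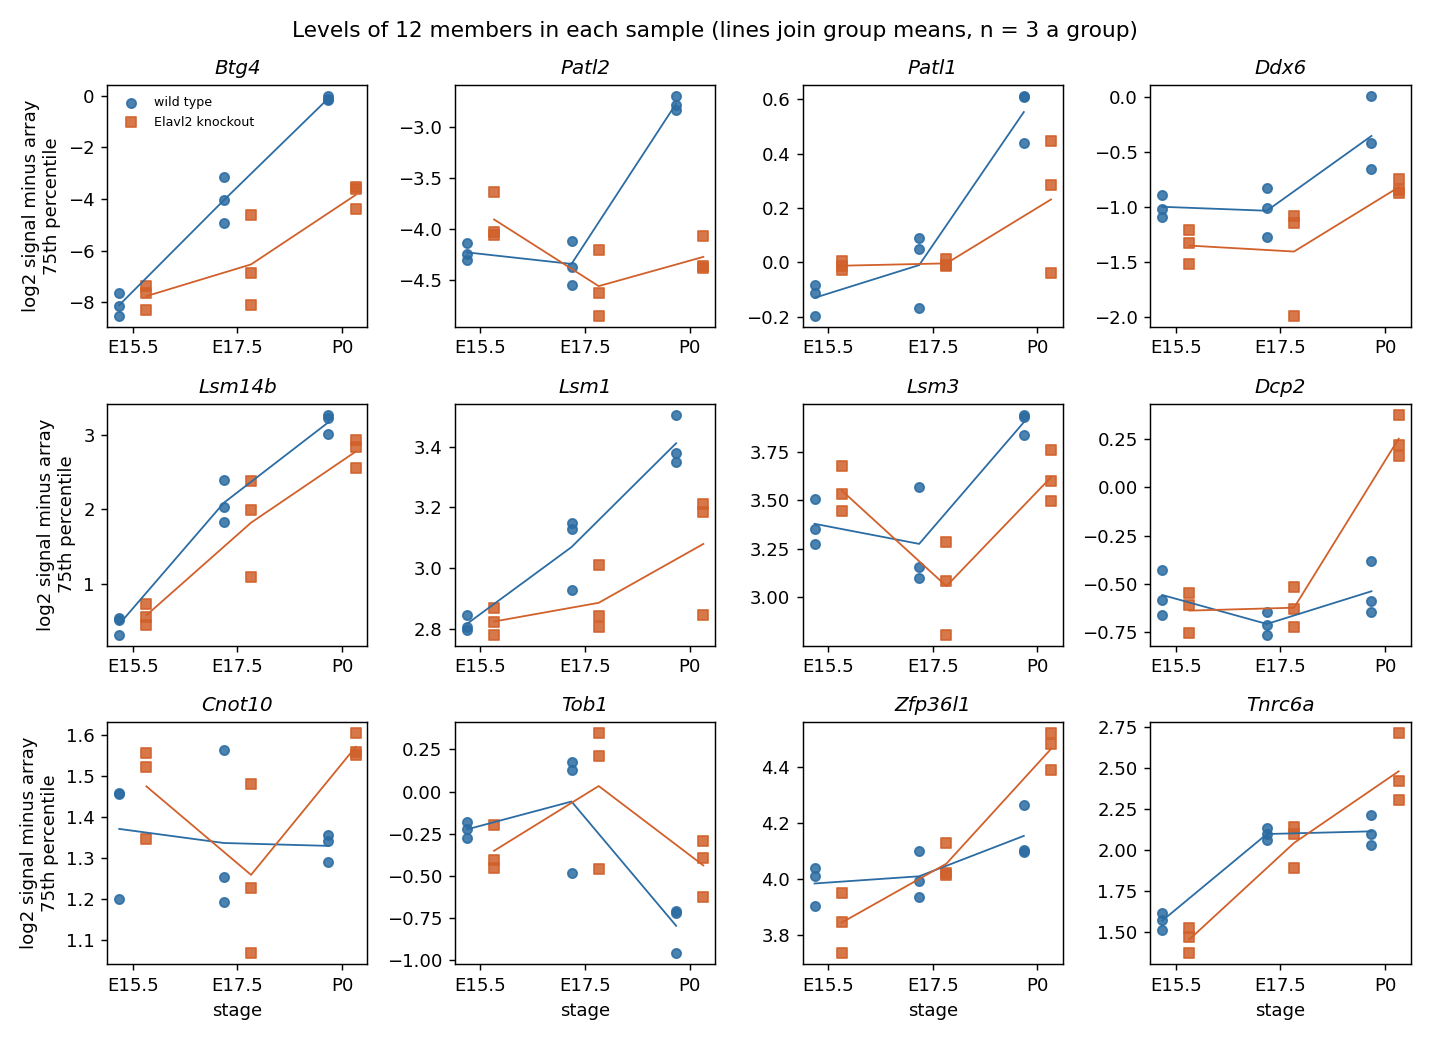
Level of 12 members in each sample (log2 signal minus the 75th percentile of the array) by stage, with wild type as circles, Elavl2 knockout as squares, and lines through the means of 3 samples. For Btg4 and Patl2 the genotypes part at P0 from -3.52 and -4.07 at the highest in knockout to -0.16 and -2.83 at the lowest in wild type; for Dcp2 the knockout lies above.

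Of the 6 adaptors of deadenylation, 1 fell and 2 rose at P0 (50% called), against 34.5% of all genes called (18.3% higher, 16.1% lower). Btg4 brings the CCR4-NOT enzymes to maternal messengers and is known for clearing them when oocytes mature. At P0 its level was -0.16, -0.12 and -0.005 in wild type and -3.63, -4.38 and -3.52 in knockout. The wild type samples were close together (-0.10 ± 0.08, SD, n = 3) and all knockout samples lay far below (-3.84 ± 0.47). The change was -3.75 ± 0.68, a 13.4-fold fall (adjusted p = 0.0012). It was called under each of the 29 alternatives in which it was tested, from -3.91 to -2.67, the smallest with normexp and quantile normalization; it did not pass the stricter filter. The P0 Btg4 signal was well above background in all 6 samples. This probe lies at chr9:50927671-50927730 (mm9).

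The 2 adaptors that rose did so by less. Tob1, an anti-proliferative protein that links CCR4-NOT to the poly(A)-binding protein, was -0.72, -0.96 and -0.71 in wild type and -0.29, -0.40 and -0.63 in knockout, without overlap. Its change was 0.36 ± 0.10 (adjusted p = 0.015), lost under 5 of 30 alternatives, among them leaving out wild type replicate 2 or knockout replicate 1. Zfp36l1, which brings CCR4-NOT to AU-rich messengers, was 4.26, 4.10 and 4.10 in wild type and 4.48, 4.52 and 4.39 in knockout. Its groups did not overlap and its change was 0.31 ± 0.08 (adjusted p = 0.0073), lost under 2 of 30 alternatives, those fitted to the P0 arrays alone. Tob2, Zfp36 and Zfp36l2 were not called (-0.05, 0.18 and -0.07).

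Among the 7 genes of cap removal and 5' decay, 1 was called at P0 (14.3%), against 34.5% of all genes. Dcp2, the decapping enzyme itself, was -0.65, -0.59 and -0.38 in wild type and 0.38, 0.16 and 0.22 in knockout. All knockout samples were above 0 and all wild type samples below it. The change was 0.79 ± 0.10, a 1.73-fold rise (adjusted p = 7.9e-05), and it was called under all 30 alternatives (0.40 to 0.93). The rise rested on 1 of the 2 probes of the gene: the second, dimmer probe showed 0.01 ± 0.12 (adjusted p = 0.95), and with the mean of both probes the change was 0.40. The other 6 genes of this role were not called: the cofactors Dcp1a (0.26 ± 0.13) and Dcp1b (-0.07 ± 0.08), the scavenger Dcps (0.04 ± 0.08), the enhancers Edc3 (0.21 ± 0.08) and Edc4 (0.02 ± 0.15), and the exonuclease Xrn1 (0.12 ± 0.13).

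Of the 7 genes of the LSM1-7 ring, which binds shortened tails and activates decapping, 2 fell at P0 and none was called higher. That is 28.6% called, against 34.5% of all genes (16.1% lower), and neither was called on the array median scale. Lsm1, the subunit that sets this ring apart from the nuclear one, was 3.38, 3.51 and 3.35 in wild type and 3.21, 2.84 and 3.18 in knockout, without overlap. Its change was -0.33 ± 0.10 (adjusted p = 0.021), lost under 5 of 30 alternatives, among them leaving out wild type replicate 2 or knockout replicate 2. Lsm3 was 3.84, 3.94 and 3.93 in wild type and 3.60, 3.49 and 3.76 in knockout, with a change of -0.28 ± 0.10 (adjusted p = 0.036). Its call was lost under 11 of 30, including leaving out any 1 wild type sample or knockout replicate 1 or 2. The other 5 subunits, which like Lsm3 also belong to the nuclear LSM2-8 ring, lay between -0.17 (Lsm5) and 0.15 (Lsm4).

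Of 9 CCR4-NOT genes, 1 was called at P0 (11.1%), against 34.5% of all genes. Cnot10, a subunit of the N-terminal module of the complex, was 1.36, 1.34 and 1.29 in wild type and 1.60, 1.55 and 1.56 in knockout. The groups did not overlap and the change was 0.24 ± 0.08 (adjusted p = 0.034), but the call was lost under 14 of 30 alternatives, including leaving out any 1 P0 sample. The catalytic subunits Cnot6, Cnot6l, Cnot7 and Cnot8 were at -0.11, -0.13, -0.30 and 0.03, and the scaffold Cnot1, without overlap between genotypes, at -0.22 ± 0.09 (adjusted p = 0.071). Cnot2, Cnot3 and Cnot4 were at -0.11, -0.16 and -0.07. None of the 3 other deadenylase genes was called: Pan2 was at -0.11, its partner Pan3 at 0.07, and Parn, a poly(A)-specific ribonuclease, at 0.14.

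Among the 4 genes of microRNA silencing and stress granules, Tnrc6a alone was called at P0, higher (25% called, against 34.5% of all genes). It encodes GW182, the protein through which Argonaute recruits the deadenylases. Its level was 2.22, 2.03 and 2.10 in wild type and 2.71, 2.42 and 2.31 in knockout, without overlap, and the change was 0.37 ± 0.10 (adjusted p = 0.013). The call was lost under 3 of 30 alternatives, among them leaving out wild type replicate 2. The Argonaute gene Ago2 was at -0.16 ± 0.14, and the stress granule genes Caprin1 and G3bp1 at 0.02 ± 0.08 and -0.03 ± 0.07.

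Before birth no member was called. At E15.5, limma called 0 of 42 members, against 1.62% of all genes (0.969% higher, 0.648% lower), with 5 members at an unadjusted p under 0.05 (Dcps, Ddx6, Patl2, Eif4enif1 and Pan3) and 14.7% of all genes. The genotypes did not overlap in 13 members, 10 of them with the knockout above, beside 23.8% of all genes. The largest change among these was that of Ddx6, below in the knockout. At E17.5, limma called 0 of 42, against 4.16% of all genes (1.33% higher, 2.82% lower), with 8 members at an unadjusted p under 0.05, and 22% of all genes. Only Ago2 and G3bp1 did not overlap at E17.5, both above in the knockout, against 19.1% of all genes. At E15.5 the changes ran from -0.35 (Ddx6) to 0.35 (Btg4, not well above background in either genotype).

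The largest change at E17.5 was that of Btg4, whose level was -4.04, -4.95 and -3.15 in wild type and -4.63, -6.85 and -8.12 in knockout. It overlapped, and 1 of the 3 knockout samples was well above background. The change was -2.49 ± 0.68 (adjusted p = 0.058). Replicate 3 of each E17.5 group was run apart from the other replicates, with the E15.5 arrays (run A). For Btg4, knockout replicates 2 and 3 were not well above background, so no difference within a run is given. For Ddx6 the difference was -0.72 in run A, from 1 sample a genotype, and -0.20 in run B, and for Lsm14b it was -0.74 and -0.03. Knockout replicate 3 was the lowest sample of all 3 genes at this stage. Some markers of cell types, chosen after their values were seen, also differed more in run A: the germ cell genes Ddx4 (-0.81 and -0.10) and Tdrd1 (-1.51 and -0.37), the oocyte gene Nobox (-1.67 and -0.13) and the red cell gene Alas2 (2.87 and 0.65), and their part was not tested. Of the 42 members, 26 had the same sign in both runs, beside 12037 of 19299 genes. Quantile normalization with or without normexp, and trended, robust moderation, called Btg4 lower at E17.5. The replicate block was fitted only together with leaving out the other stages. In limma, 1 of 19299 genes was called with the E17.5 groups alone and 0 with the block added, where 2978 genes and 0 of 42 members had an unadjusted p under 0.05.

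Whether the genotype effect differed between P0 and E17.5 was tested as an interaction. It did in 2 of 42 members, against 10.4% of all genes (4.28% higher, 6.12% lower; on the array median scale 4 members, 3 higher and 1 lower): Patl2 (-1.28 ± 0.17, adjusted p = 0.0011) and Dcp2 (0.70 ± 0.14, adjusted p = 0.0077). For Patl2 the wild type level rose by 1.71 ± 0.13 from E17.5 to P0 and the knockout level by 0.43 ± 0.13. The knockout samples of these stages overlapped, and that rise lost its call under 7 of 30 alternatives (0.098 to 0.49), among them leaving out knockout replicate 2 of E17.5 or knockout replicate 1 of P0. For Dcp2 the wild type change was 0.17 ± 0.10, not called, and the knockout rose by 0.87 ± 0.10. With the replicate block on these groups alone, Dcp2 was not called (adjusted p = 0.066), and Patl2 was called under all 30 alternatives. Btg4 was lower by 3.75 at P0. Its change of -2.49 at E17.5 was not called, and 1 of the 3 knockout samples there was well above background. The difference between the stages, -1.26 ± 0.96, was not called (adjusted p = 0.42), and its size rests in part on that dim signal.

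**Figure D3:**
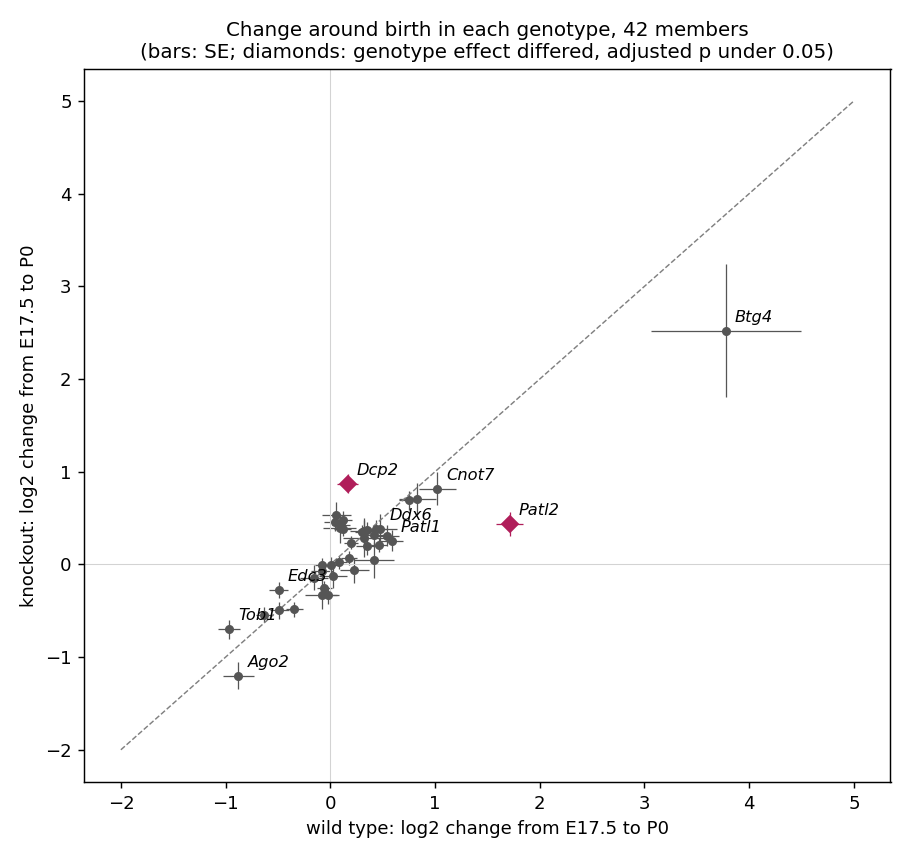
Log2 change from E17.5 to P0 in wild type (horizontal) and in knockout (vertical) for the 42 members, with standard errors and a dashed line of equal change. Patl2, at 1.71 and 0.43, and Dcp2, at 0.17 and 0.87, are the 2 members marked as differing between genotypes.

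In wild type ovaries some scaffold and ring genes rose around birth. From E17.5 to P0, 21 of 42 members (50%) were called, 15 higher and 6 lower, against 43.3% of all genes (22.1% higher, 21.2% lower). On the array median scale, where the median change of all genes was -0.15, the members split into 9 and 6. Of the 6 scaffold genes 5 rose: Patl2 (1.71), Lsm14b (0.83 ± 0.17), Patl1 (0.59 ± 0.11), Ddx6 (0.48 ± 0.16) and Eif4enif1 (0.20 ± 0.07). Of the 7 ring genes 5 rose, from 0.31 (Lsm4) to 0.76 (Lsm3). On the array median scale 3 scaffold genes (Patl2, Lsm14b and Patl1) and 3 ring genes (Lsm3, Lsm5 and Lsm6) were called higher, and with the replicate block on these groups alone 3 scaffold genes (Patl2, Lsm14b and Ddx6) and no ring gene were. Btg4 rose by 3.78 ± 0.72 (adjusted p = 0.0012). The catalytic subunit Cnot7 rose by 1.02 ± 0.18 and Cnot6l by 0.44 ± 0.10, Dcp1b by 0.35 ± 0.08 and Pan3 by 0.42 ± 0.10. Those that fell were Tob1 (-0.97 ± 0.11), Ago2 (-0.88 ± 0.15), Cnot4 (-0.63 ± 0.08), Cnot1 (-0.49 ± 0.09), Edc3 (-0.49 ± 0.09) and Caprin1 (-0.34 ± 0.08). With the mean of all probes in place of the brightest, Ago2 and Cnot1 were not called and Cnot4 turned to 0.17. Btg4, Patl2, Lsm14b, Cnot7, Cnot6l and Edc3 were called under every alternative tried, and Ddx6 under 24 of 30. Over the same interval the oocyte markers Zp3 and Gdf9 were called higher, 2 of 4 measured, as was 1 of 5 germ cell markers (Tdrd1), and 3 of 4 endothelial, 2 of 5 red cell and 1 of 4 macrophage markers lower, and their part was not tested.

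In knockout ovaries over the same interval 26 of 42 members (61.9%) were called, 18 higher and 8 lower, against 37.2% of all genes (18.2% higher, 19% lower). Btg4 was at 2.52 ± 0.72 (adjusted p = 0.015), but 1 of its 3 E17.5 knockout samples was well above background, and the change ran from 0.70 to 3.76 over 29 alternatives, with the call lost under 3, among them leaving out knockout replicate 2 of E17.5. Those that rose included Cnot7 (0.82 ± 0.18), Lsm14b (0.70 ± 0.17) and Lsm3 (0.69 ± 0.10). Ddx6 and Patl1 were at 0.38 ± 0.16 and 0.26 ± 0.11 and were not called (adjusted p = 0.083 and 0.090). Ago2 fell by 1.20 and Tob1 by 0.70. All 5 red cell markers were called lower over this interval in knockout, with a median of -2.99, as were 2 of 4 macrophage markers (Adgre1 and Cd68), while Zp3 and Gdf9 of the oocyte and Dazl and Tdrd1 of the germ cell markers were called higher. Their part was not tested. This count of members was unsteady: it was 17 without knockout replicate 2 of E17.5, 7 with only these groups in the fit, and 0 in limma with the replicate block added to those groups alone (19 members at an unadjusted p under 0.05).

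Between E15.5 and E17.5, 12 of 42 members were called in wild type, 8 higher and 4 lower, against 26.4% of all genes (15.3% higher, 11.1% lower). Lsm14b rose by 1.13 ± 0.20, from 0.32, 0.55 and 0.51 to 2.04, 2.39 and 1.83, with no overlap. The fitted change is smaller than the gap between these levels, since the fit holds a term for the run, and it ran from 0.65 to 1.63 over the alternatives. Btg4 was not well above background in any E15.5 sample and was in all 3 wild type samples at E17.5. Its rise is therefore given as a bound on the measured means (-8.11 and -4.05), at least 4.82-fold. The bound takes, on each E15.5 array, the higher of its own signal and the lowest signal well above background. It holds no term for the run, unlike the limma fit (adjusted p = 0.0066). Over 29 alternatives the fitted change ran from 0.85 to 4.97, and its call was lost without wild type replicate 3 of E17.5. Lsm2 (0.75), Dcp1a (0.74), Parn (0.59), Tnrc6a (0.58), Pan3 (0.46) and Cnot1 (0.42) rose, and Cnot3 (-0.70), Dcps (-0.62), Lsm4 (-0.40) and Cnot4 (-0.31) fell. Wild type replicate 3 was the 1 wild type sample of E17.5 in the run of the E15.5 arrays, and without it 1 member, Lsm4, was called. In knockout, 7 of 42 were called against 21.8% of all genes (11.8% higher, 9.98% lower; 3 members without wild type replicate 3 of E17.5), among them Lsm14b (0.74 ± 0.20), Tnrc6a (0.64 ± 0.12) and Cnot1 (0.38 ± 0.11), higher, and Dcps (-0.87 ± 0.10), lower. On the array median scale the splits were 3 higher and 8 lower in wild type and 1 and 8 in knockout. Over the same interval all 4 oocyte markers measured were called higher in both genotypes (median 2.69 in wild type and 1.95 in knockout). Of 5 germ cell markers 2 were called higher in wild type, and 1 higher and 2 lower in knockout. Macrophage markers were called higher, 1 of 4 in wild type and 4 of 4 in knockout. Of 5 pregranulosa markers 2 were called lower in wild type and 1 in knockout. Their part was not tested.

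The probes of a gene did not always move together. Of the 84 member probes that passed the filter, 28.6% were called at P0 when all probes were fitted, against 32.5% of all probes, 15 lower and 9 higher. Of 26 members with several such probes, 18 had 1 sign at P0 in all of them. In 8 members a probe that was not used for the gene was called although the brightest probe was not. For Ago2 the brightest probe was at -0.16 and 2 of the 3 dimmer ones at -0.67 ± 0.21 and -0.57 ± 0.16 (adjusted p = 0.025 and 0.0165). For Cnot4, an E3 ligase of the complex, the brightest was at -0.07 and the others at -0.53, -0.34 and -0.15, and the first of these was at -0.86 ± 0.11 at E17.5 too (adjusted p = 0.0032). For Lsm6 2 of the 3 dimmer probes were at -0.40 and -0.39, with adjusted p = 0.0070 and 0.0039. Cnot2, Cnot6l and G3bp1 each had 1 other probe called lower (-0.18, -0.37 and -0.45), and Eif4enif1 and Cnot6 1 called higher (0.62 and 0.51). The second brightest probes of Tnrc6a and Zfp36l1 were called higher as well (0.63 and 0.51). Patl2, Btg4, Ddx6, Patl1, Lsm1, Lsm3 and Tob1 each had 1 probe that passed. At E17.5 a probe not used for the gene was called lower for 4 members, Cnot4, Dcp1a, Dcp2 and Xrn1, which for Dcp2 was the dimmer probe (-0.55 ± 0.12, adjusted p = 0.018). At E15.5 this held for 1 member, Tob2, whose dimmer probe was at -0.78 ± 0.18 (adjusted p = 0.045).

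**Figure D4:**
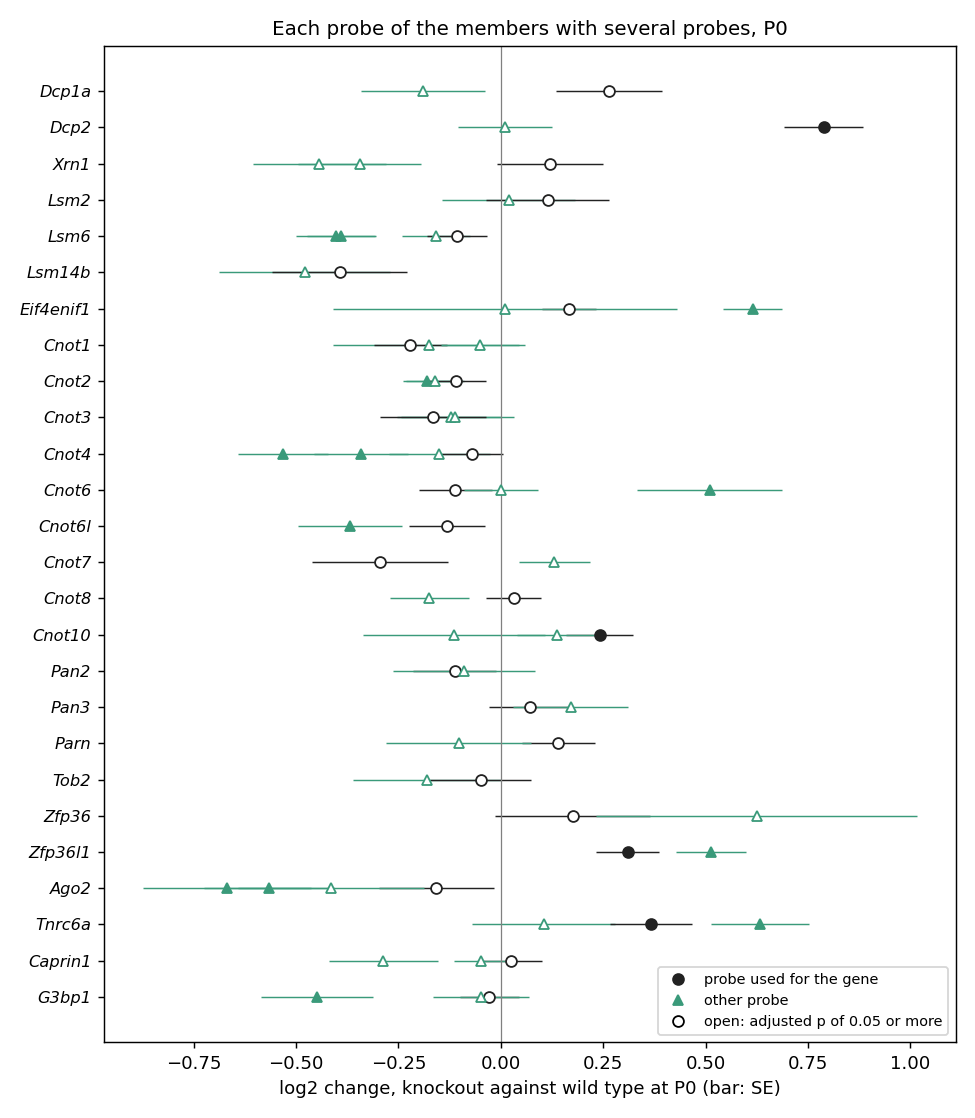
Log2 change at P0, knockout minus wild type, of each probe of the 26 members with several probes that passed the filter, with standard errors. Circles mark the probe used for the gene and triangles the others, filled where the adjusted p is under 0.05; for Ago2, Cnot4 and Lsm6 filled triangles lie left of an open circle.

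Genes of neighbouring pathways were listed beside the members, and at P0 their counts stand beside 34.5% of all genes called, 18.3% higher and 16.1% lower. In the exosome and SKI list, which decays messengers from the 3' end, 1 of 16 rose and 5 fell. With 37.5% called, 6.25% higher and 31.2% lower, only the total was near the share of all genes. The exosome core genes Exosc8 (-0.49 ± 0.08, adjusted p = 0.00055) and Exosc6 (-0.37 ± 0.08) and the nuclease Dis3l (-0.56 ± 0.10) fell, and the nuclease Dis3 rose (0.52 ± 0.09). In nonsense-mediated decay 2 of 10 rose and 2 fell (40% called), with the helicase Upf1 at -0.71 ± 0.09 (adjusted p = 0.00013). Upf1 was at 0.04 at E17.5, and its stage difference of -0.75 ± 0.13 was called. Of 9 further microRNA genes 3 fell and none rose (33.3% called, all lower), again near that share in total only. They were Tarbp2 (-0.68 ± 0.07), its partner nuclease Dicer1 (-0.84 ± 0.15) and Tnrc6c (-0.39 ± 0.13). Dicer1 was also called lower at E15.5 and E17.5 (-0.77 and -0.92). Tarbp2 was called lower at E17.5 too, and its stage difference was called, lower. Ago3 was called higher at E15.5.

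Of 13 other deadenylation genes measured, out of 14 listed, Btg3 rose by 0.62 ± 0.07, and Angel1 fell (-0.64 ± 0.09), 15.4% called. Among 13 stress granule genes G3bp2 fell (-0.92 ± 0.08, adjusted p = 5.8e-06) and the RNA-binding protein gene Fmr1 rose (0.63 ± 0.11). None of the 4 uridylation genes, which tag shortened tails, was called at P0 by limma (0 at an unadjusted p under 0.05), where Tut4 was at -0.27 ± 0.14. Of 7 genes of messenger storage in oocytes 5 were measured, 1 higher (Dazl) and 1 lower. The latter was Zar1, which organises stored messengers in oocytes, at 1.24, 1.53 and 1.11 in wild type and -3.50, -3.74 and -3.29 in knockout (-4.80 ± 0.36, adjusted p = 2.5e-06). At E17.5 Zar1 was at -0.55 ± 0.36, not called, and the stage difference was -4.25 ± 0.51 (adjusted p = 0.00057). The medians of the lists at P0 ran from -0.34 (messenger storage) to 0.05 (other deadenylation).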

How the data were processed

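Whole-ovary RNA was labelled with Cy3 and hybridised to 18 one-colour Agilent arrays, per the labels' protocols. The deposited scanner files hold a background-subtracted intensity for each spot, which the authors obtained from Feature Extraction software of Agilent (version 10.7.3.1 per the file headers, 9.5 per the submitters' processing notes). The authors' deposited series matrix holds log2 values that equal the log2 intensity plus a constant per array, and it served as an alternative. The flags for outlier spots and for signal well above background are those deposited in the same files.

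Control probes and outlier spots (51 to 109 an array) were left out. The array's 75th percentile was subtracted from log2 intensity, and the brightest passing probe stood for a gene. Of 41174 probes, 29203 passed. Names came from the files or, by accession, from RefSeq genes of GRCm38.p6 (names only). limma 3.58.1 in R 4.3.3 was fitted to all arrays with the 6 groups and the run, leaving 11 residual degrees of freedom. The run was read from the form of the file names and matched the scan day. Of 7 slides, 1 held both genotypes of a stage (E17.5 replicate 3). Replicate arrays correlated at 0.965 to 0.995, and 3 arrays a group limit the precision. At E17.5 the deviations of samples with the same replicate number correlated at 0.12, 0.40 and 0.45. Replicate 3 of both genotypes shared a run and a slide apart from the others, so these values do not show pairing. With the replicate block, fitted to those groups alone, no gene was called. The block therefore cannot show whether member calls at E17.5 depend on pairing.

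The rule for named genes was sample values for Ddx6 and members called between genotypes, and up to 4 genes of each companion list; Lsm14b and the genes singled out by probe or by stage were chosen after their values were seen. Members and lists were chosen with earlier results of these data known. The fitting step was tested on simulated data with 200 changed genes, independent noise and the same run shift for every gene. That setting differs from P0, where 6649 genes were called and no slide held both genotypes, so it does not test those conditions. Other settings varied the normalization, scaling, filter, batch terms, probe rule, moderation and samples. Figures were drawn with matplotlib 3.10.9.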

Additional observations from a re-analysis of the deposited data

Results flagged for a closer look

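For 2 members the genotype effect at P0 differed from that at E17.5 by the interaction test in limma. Patl2 had a difference of -1.28 on the log2 scale, with all 3 knockout samples below all wild type samples at P0 and overlap at E17.5. Dcp2 had a difference of 0.70, with all 3 knockout samples above at P0 and overlap at E17.5. The dimmer probe of Dcp2 had a like difference of 0.56 ± 0.16 (adjusted p = 0.048), but from -0.55 at E17.5 to 0.01 at P0. At P0 no slide held both genotypes.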

How the results depend on the processing

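The replicate block was fitted only with the other groups left out, so it changes 2 choices at once. Of the 11 calls at P0, those of Btg4, Dcp2 and Patl2 held under every alternative tried in which they were tested. Over all 11, 270 of 329 values kept the call, 59 lost it and none turned. These values include settings without an array of another stage, which could not move a P0 change, only its adjusted p. The members called at P0, 11 in the reported fit, were 7 with no filter, no run term or the slide as a random block, and 3 with only the groups compared, with the replicate block, or at 1.5-fold or more; leaving out 1 array gave 4 to 13. At E17.5, 0 became 2 with normexp and quantile, 1 with quantile, 1 with trended and robust moderation and 3 with the mean of all probes, and 0 to 2 leaving out 1 array. At E15.5 the count was 0 throughout. The 2 differences between stages became 4 with normexp and quantile or the array median and 1 with the replicate block, and 2 to 4 leaving out 1 array. From E15.5 to E17.5, the 12 of wild type became 7 at 1.5-fold (1 to 14 leaving out 1 array), and the 7 of knockout became 17 with no run term, 3 with the mean of all probes or at 1.5-fold, 1 with only the groups compared and 0 with the replicate block (3 to 9 leaving out 1 array). From E17.5 to P0, the 21 of wild type (21 with only the groups compared) became 10 with the replicate block and 9 at 1.5-fold (18 to 22 leaving out 1 array), and the 26 of knockout 7 with only the groups compared or at 1.5-fold and 0 with the block (17 to 28 leaving out 1 array). With the mean of all probes, Cnot4 turned to 0.17 in wild type and 0.19 in knockout from E17.5 to P0, and Cnot6 to 0.028 in knockout; the probes of these genes differ, as given above. The cause of the other shifts was not tested. Correlations by replicate number were 0.15, 0.10 and 0.08 at P0, and 0.18, 0.21 and -0.12 at E15.5. Whether the numbers mark pairs of samples is not given. Btg4 at E15.5, and in 2 of 3 knockout samples at E17.5, was limited by signal near background.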
